A study of Mus musculus with 6 samples.

Results

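Expression of 7 gastric genes was followed in mTECs, the medullary epithelial cells of the thymus. These cells transcribe genes of peripheral organs and show their products to developing T cells. The genes were chosen by symbol and were Atp4a, Atp4b, Gif, Pgc, Gkn1, Gkn2 and Gkn3. All 7 had exactly 1 row in each deposited table, out of 20443 genes. Per the labels, mTECs were sorted from the thymus of C57BL/6 mice 4 weeks old. The 3 control mice were Jmjd3fl/fl with no Cre (libraries Con_253, Con_261, Con_264). The 3 Jmjd3-deficient mice were Jmjd3fl/fl-Foxn1-cre (libraries cKO_262, cKO_263, cKO_265), in which the Foxn1 promoter drives Cre in thymic epithelium, cortical as well as medullary. Where 3 values of a group are given, they follow this order. Jmjd3, with the gene symbol Kdm6b, removes methyl groups from lysine 27 of histone H3. The controls lacked the Cre construct, so its effect and that of Jmjd3 loss cannot be told apart.

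Acid in the stomach is made by parietal cells, whose proton pump joins a catalytic alpha subunit (Atp4a) to a glycosylated beta subunit (Atp4b). Chief cells secrete pepsinogens such as Pgc, and in the mouse they also secrete gastric intrinsic factor (Gif), which binds vitamin B12. Gastrokines are small secreted proteins with a BRICHOS domain that come from mucous cells of the gastric lining rather than from parietal or chief cells. The pump subunits and intrinsic factor are the classical targets of autoimmune gastritis and pernicious anaemia, and their presentation in the thymus is one route to tolerance of the stomach.

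Levels are the FPKM values that the authors deposited, in which fragment numbers are corrected for transcript length and for library size. The read depth is unknown, so no counting error can be given, and the number of mice limits the precision. Summed FPKM was 461791 to 543802 in the controls and 583466 to 641685 in the deficient libraries. The targeted gene Kdm6b was at 9.998 to 18.1 FPKM in control and 8.67 to 11.6 FPKM in deficient libraries. These ranges overlapped, and a value summed over every exon does not check the labels. On the first principal component (42.8% of the variance) the controls scored -22.7, -21.1 and -9.87. The deficient libraries scored -6.74, 7.42 and 53.0, so the groups did not overlap, and cKO_265 had the most extreme score. The Y-linked gene Eif2s3y stood at 7.88 FPKM in Con_253, with no value above 0.041 FPKM elsewhere, and the labels give no sex. All 10 thymic epithelial markers with a row were present in each library (25.99 FPKM or more), among them Epcam, Krt5, Krt14, Aire and Fezf2. These markers reached 4468 FPKM, and the gastric genes at most 26.9 FPKM.

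The gastric genes spanned a wide range of levels. In the controls the order by mean was Gkn2 (18.4 ± 7.40 FPKM, SD, n = 3), Pgc (13.4 ± 2.46), Atp4a (7.50 ± 1.44), Atp4b (3.11 ± 0.309), Gif (2.49 ± 0.420), Gkn1 (1.98 ± 0.719) and Gkn3 (0.368 ± 0.233). The highest mean was 50.03 times the lowest. Neighbours in this order overlapped between Gkn2 and Pgc, between Atp4b and Gif, and between Gif and Gkn1, whereas the libraries separated Pgc from Atp4a, Atp4a from Atp4b, and Gkn1 from Gkn3. In the deficient libraries the order was the same but for the pump subunits, since Atp4b (4.67 ± 2.07 FPKM) stood above Atp4a (3.15 ± 1.03 FPKM), and these 2 overlapped. Gkn2 ranked first, Pgc second and Gkn3 last of the 7 in each of the 6 libraries. Among all genes of a library, Gkn2 lay between percentiles 71.4 and 85.5, Pgc between 64.1 and 78.0 and Gkn3 between 8.19 and 30.4.

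**Figure D1:**
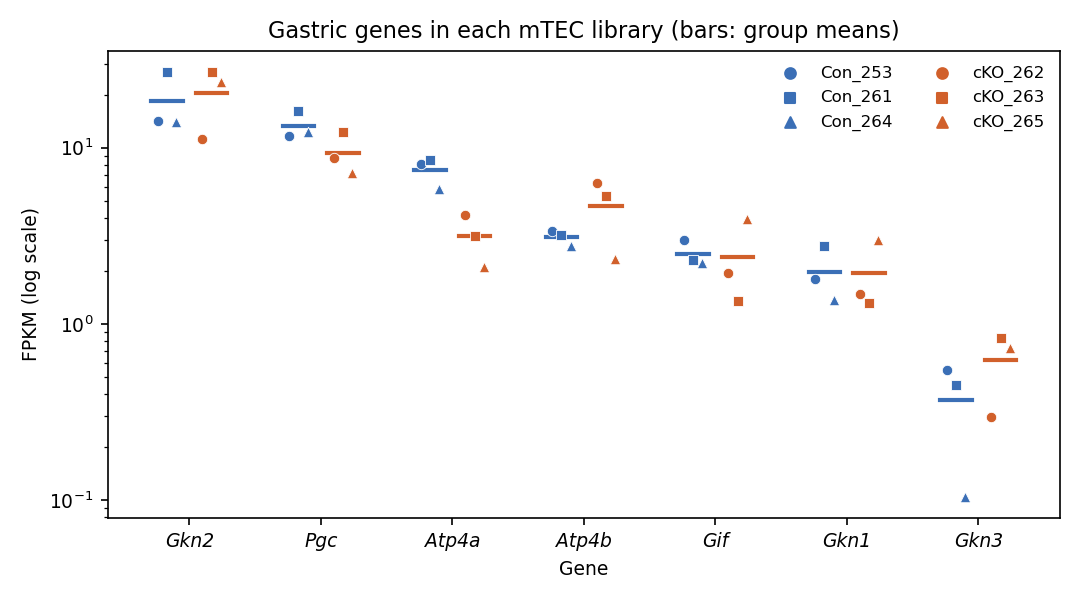
FPKM of the 7 gastric genes in each library, on a log axis, with controls in blue, Jmjd3-deficient libraries in orange and short bars for the group means (n = 3 mice each). The groups separate for Atp4a alone, and Gkn2 and Pgc hold the highest values in every library.

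Jmjd3-deficient mTECs were compared with control mTECs to ask whether gastric antigens are among the tissue-restricted genes that need Jmjd3, the question in the title of the series. Of the 7 genes, 6 passed the filter on low values (0.5 FPKM or more as the mean of all 6 libraries), and 0 of these 6 passed the test (limma on log2(FPKM + 1), adjusted p under 0.05). Over all 15720 tested genes 12 passed, which is 0.0763% (0.0191% higher and 0.0573% lower in the deficient libraries), so 0 of 6 is what this background would give. At an unadjusted p under 0.05 there was 1 gene of the 6, Atp4a, against 14.6% of all tested genes. Atp4a was also the single gene whose groups did not overlap, which held for 21.5% of all tested genes (11.9% lower and 9.59% higher). The difference (deficient minus control) was negative for 4 genes and positive for 2 as deposited, negative for 3 after median centring and negative for 2 after quantile normalization. The median difference was -0.07 for the 6 genes and -0.04 for all tested genes. In these sorted populations fewer cells that transcribe a gene and less RNA of it per cell cannot be told apart.

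**Figure D2:**
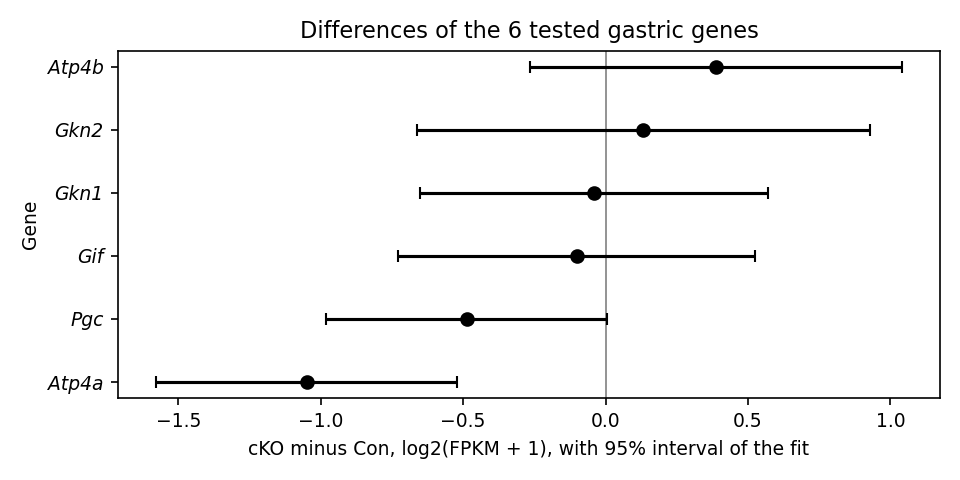
Difference between deficient and control libraries on the log2(FPKM + 1) scale for the 6 tested gastric genes, with the 95% interval of the limma fit (3 against 3 mice). The interval of Atp4a runs from -1.58 to -0.52, that of Pgc reaches 0.01, and the other 4 extend well to both sides of 0.

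Atp4a, the catalytic subunit of the proton pump, had the lowest p of the 6. The controls had 8.11, 8.53 and 5.86 FPKM, against 4.17, 3.17 and 2.11 FPKM in the deficient libraries. Every control lay above every deficient library, and the control mean was 2.38 times the deficient mean. The difference was -1.05 on the log2 scale (SE 0.23, limma adjusted p = 0.125, unadjusted p = 0.00165), which did not pass over all genes, where Atp4a ranked 200 by p. Its size exceeded that of 98.9% of tested genes. The difference lay between -1.22 and -0.86 when any 1 library was left out and was -0.80 without both Con_253 and cKO_265 (limma adjusted p = 0.198). With limma's library weights, which set cKO_265 to 0.263 and Con_261 to 8.72, it was -1.14 and passed (limma adjusted p = 0.00393), as did 3025 of all tested genes. Over all 14 alternatives its adjusted p ran from 0.00393 to 0.448. The gene (protein coding, plus strand) spans chromosome 7 from 30712232 to 30725534 in mm10.

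Atp4b, the beta subunit without which the alpha subunit does not reach the membrane, did not follow Atp4a. Its control values kept to a narrow range, 3.38, 3.17 and 2.77 FPKM, while the deficient libraries gave 6.32, 5.33 and 2.34 FPKM. Thus cKO_262 and cKO_263 lay above all controls, and cKO_265 lay below them. The difference was 0.39 (SE 0.29, 95% interval -0.26 to 1.04, limma adjusted p = 0.573), and it was 0.73 without cKO_265, 0.17 without cKO_262 and 0.27 without cKO_263 (limma adjusted p = 0.162, 0.795 and 0.774). It passed with library weights (0.56, adjusted p = 0.0384). The gene (protein coding, minus strand) spans chromosome 8 from 13386209 to 13396778. GENCODE M21 also lists Gm45410 on the opposite strand within it, and since strand was not stated, reads of that locus cannot be told apart from those of Atp4b.

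The balance between the pump subunits was then read within each library, where the plain ratio does not depend on scaling between libraries. Atp4a was at 2.40, 2.69 and 2.11 times the level of Atp4b in the control libraries, and at 0.659, 0.594 and 0.903 times that level in the deficient ones. All 3 controls thus had more Atp4a than Atp4b per length of transcript, and all 3 deficient libraries had less. The difference between the subunits on the log2(FPKM + 1) scale, in which the added 1 leaves some dependence on scaling, shifted by -1.44 between groups (from 1.04 ± 0.165 to -0.40 ± 0.265, SD, n = 3 each). An exact permutation test over the libraries gave p = 0.1 (2-sided), the smallest that 3 against 3 allows, and an adjusted p of 0.35 over the 21 pairs of the 7 genes. Of these 21 pairs 6 did not overlap, and 4 of the 6 involved Atp4a. This pair was singled out after the values were seen. The difference of Atp4a to any other tested gene was lower without overlap in the deficient libraries for 78% of 15719 genes, so separation from 1 partner is common for Atp4a. For Atp4b the corresponding share in the higher direction was 18.6%, and 113 of 15719 genes gave a larger shift against Atp4b than Atp4a did. In the other direction 1498 of 15719 genes gave a larger shift against Atp4a than Atp4b did. The counts of 113 and 1498 follow from each partner's own difference, so they do not test the balance of the subunits.

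**Figure D3:**
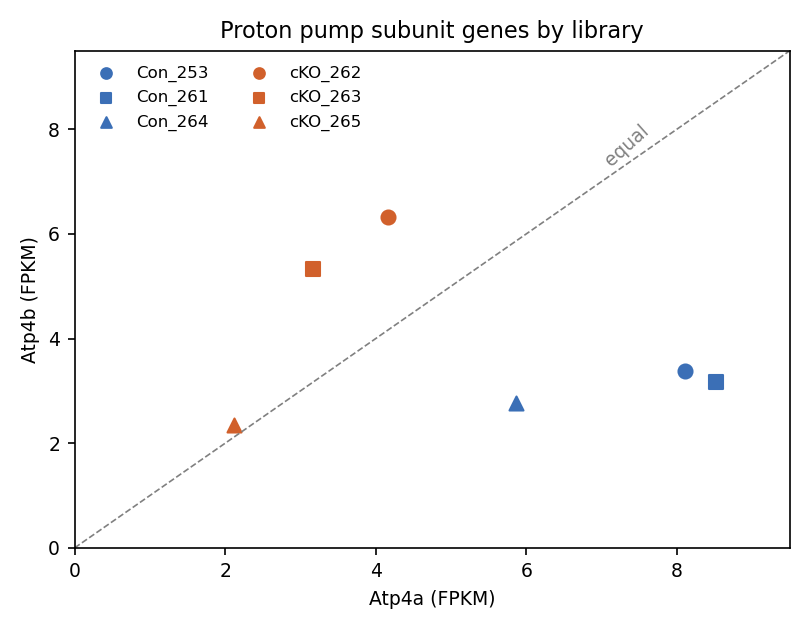
FPKM of Atp4a (horizontal) and Atp4b (vertical) in each library, both on linear axes from 0, with a dashed line where they are equal. The 3 controls lie below the line (ratios of 2.11 to 2.69) and the 3 deficient libraries above it (0.594 to 0.903).

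The promoter of Atp4a is shown because it is the gene whose groups separated. GATA factors are known to bind the promoters of the pump subunit genes, so the letters GATAA and the TATA-box letters TATAAA were searched on both strands. Windows were 150 bases of RefSeq promoter (GRCm38.p6) that end just before the most upstream annotated start, on the gene's strand, and matches are in capitals. RefSeq entries were found for 6 of the 7 genes, all but Atp4b, with Gif listed under its present symbol Cblif. Among 32851 RefSeq promoter entries read over the last 150 bases before the start, 13.3% held GATAA and 7.57% held TATAAA, and GATAA and TATAAA do not overlap in the windows shown. Those of Gif and Pgc held no GATAA, and the shorter letters GATA were not searched. The window of Atp4a is chr7:30712059-30712208 on the plus strand, and neither set of letters is in it.
Atp4a promoter: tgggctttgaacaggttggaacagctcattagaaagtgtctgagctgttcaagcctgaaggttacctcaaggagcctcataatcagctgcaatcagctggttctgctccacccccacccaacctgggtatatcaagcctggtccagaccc
Gata4, which was chosen after its values were seen, was at 5.97 ± 0.806 FPKM in control and 4.47 ± 1.22 FPKM in deficient libraries (limma adjusted p = 0.469), with overlapping groups. Gata6 was at 1.11 ± 0.395 and 1.18 ± 0.311 FPKM in the same order.

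Among the chief cell genes, Pgc, which encodes the zymogen of an aspartic protease of gastric juice, gave 11.7, 16.2 and 12.2 FPKM in the controls. The deficient libraries gave 8.72, 12.2 and 7.16 FPKM. Here cKO_262 and cKO_265 lay below all controls, while cKO_263 lay among them. The difference was -0.49 (SE 0.22, 95% interval -0.98 to 0.01, limma adjusted p = 0.347), and it was between -0.68 and -0.33 with 1 library left out. As a share of its library, per 1000000 summed FPKM, Pgc was at 21.5, 31.9 and 26.5 in the controls and 14.9, 19.2 and 11.2 in the deficient libraries, without overlap. On that scale 30.1% of all tested genes were lower and 2.39% higher without overlap, against 11.9% and 9.59% as deposited, since the deficient libraries had the larger sums. Pgc spans chromosome 17 from 47726842 to 47734478 (protein coding, plus strand).

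Gif, the intrinsic factor gene, showed little difference in mean and more spread in the deficient group. The controls had 2.98, 2.29 and 2.21 FPKM and the deficient libraries 1.94, 1.35 and 3.93 FPKM. The highest and the lowest of the 6 values were both in deficient libraries, so the controls lay inside the deficient range. The difference was -0.10 (SE 0.28, 95% interval -0.73 to 0.53, limma adjusted p = 0.900), an interval that leaves room for a change in either direction. It was -0.40 without cKO_265 and 0.13 without cKO_263. Gif spans chromosome 19 from 11747559 to 11763447 (protein coding, plus strand).

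The 3 gastrokine genes lie together within 43.3 kb of chromosome 6 and differed widely in level. Gkn1 (minus strand, 87345653 to 87350915) and Gkn2 (plus strand, 87373365 to 87379494) are 22.4 kb apart, and Gkn3 (minus strand, 87383319 to 87388935) follows 3.82 kb after Gkn2. Gkn2, the most abundant, had 14.2, 26.9 and 14.01 FPKM in control libraries and 11.3, 26.9 and 23.6 FPKM in deficient ones. High and low libraries occurred in both groups, and the within-group SD on the log2 scale exceeded that of 95.4% of tested genes. For Gkn1 the control values were 1.80, 2.76 and 1.36 FPKM and the deficient values 1.47, 1.32 and 3.01 FPKM. Within a library Gkn1 was at 0.0491 to 0.130 times the level of Gkn2. For Gkn3 they were 0.547, 0.452 and 0.104 FPKM against 0.296, 0.834 and 0.732 FPKM, and Gkn2 was at 26.04 to 134.3 times the level of Gkn3. All 3 gastrokines overlapped between groups.

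**Figure D4:**
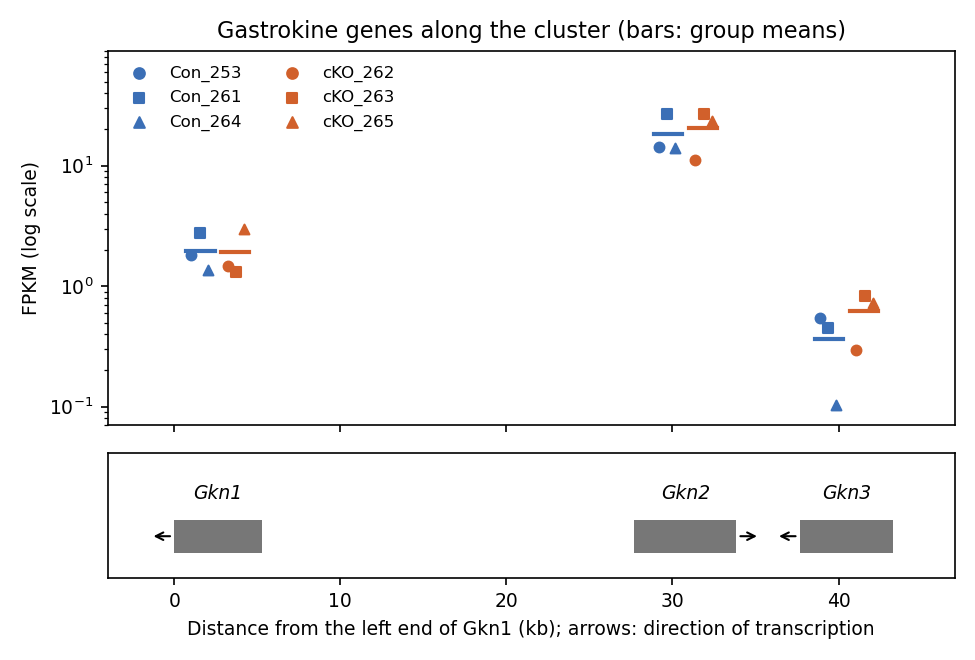
Upper panel, FPKM of Gkn1, Gkn2 and Gkn3 by library (log axis, controls in blue, deficient in orange, bars for group means), placed at each gene's position. Lower panel, the genes to scale in kb from the left end of Gkn1, with arrows for the direction of transcription. Gkn2 lies above 11 FPKM in every library, while Gkn3, 3.82 kb away, stays below 0.84 FPKM.

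The differences were 0.13 for Gkn2 (SE 0.35, 95% interval -0.66 to 0.93, limma adjusted p = 0.898) and -0.039 for Gkn1 (SE 0.27, 95% interval -0.65 to 0.57, adjusted p = 0.964). Both directions turned when single libraries were left out. Gkn3, whose mean of 0.494 FPKM lay just under the filter, had a difference of 0.24 in the fit without a filter (SE 0.19, limma adjusted p = 0.619). The promoters of the cluster are shown because neighbouring genes of 1 family had such different levels. The windows are chr6:87350943-87351092 (minus strand), chr6:87373207-87373356 (plus strand) and chr6:87388936-87389085 (minus strand), with GATAA, its reverse complement TTATC and TATAAA in capitals.
Gkn1 promoter: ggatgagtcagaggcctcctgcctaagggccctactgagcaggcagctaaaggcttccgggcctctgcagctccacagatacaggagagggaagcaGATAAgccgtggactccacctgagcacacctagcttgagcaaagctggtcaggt
Gkn2 promoter: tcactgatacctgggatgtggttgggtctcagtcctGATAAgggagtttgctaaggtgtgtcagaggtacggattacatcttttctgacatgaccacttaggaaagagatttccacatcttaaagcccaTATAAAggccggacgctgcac
Gkn3 promoter: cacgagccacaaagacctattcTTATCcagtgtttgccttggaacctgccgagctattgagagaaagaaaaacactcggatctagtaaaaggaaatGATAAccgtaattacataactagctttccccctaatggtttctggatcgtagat
All 3 gastrokine windows held GATAA, at 54 to 50 bases before the start in Gkn1, 114 to 110 in Gkn2 and 54 to 50 in Gkn3, which also held its reverse complement at 128 to 124. TATAAA was found in the window of Gkn2 alone among the gastrokines, 21 to 16 bases before the start. Of the 6 windows, that of Pgc held it as well, 31 to 26 bases before the start. These are matches of letters and were not tested as sites.

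Sequence shared with other transcripts was checked for the 7 genes. None of the 50-base words in the longest CCDS transcript of each gene (GENCODE M21) occurred in a transcript of another gene, the other gastrokines included. There were 739 words for Gkn2 to 3436 for Atp4a. Only the transcript strand was compared, so overlap with opposite-strand transcripts, such as Gm45410 within Atp4b, was not searched. Transcript lengths ran from 788 bases for Gkn2 to 3485 bases for Atp4a, with 6 to 22 exons.

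The 6 tested gastric genes were compared by how they varied across libraries. Likeness was measured as the root mean square difference between log2(FPKM + 1) profiles over the 6 libraries, each centred on its own mean, and is a description. Gif and Gkn1 were the most alike pair (0.242), with Gif ranking 439 among 15719 genes by likeness to Gkn1 and Gkn1 ranking 616 by likeness to Gif. Among the 6, Pgc was nearest to Atp4a (0.385, rank 1264) and Gkn1 nearest to Gkn2 (0.415, rank 1204). Atp4b ranked 12464 by likeness to Atp4a (0.742). The genes most like Atp4a were the water channel gene Aqp3 (0.0949), the cathepsin gene Ctsf (0.104) and the olfactory marker protein gene Omp (0.117). Aqp3 had 38.5, 47.9 and 31.6 FPKM in control libraries and 22.8, 20.8 and 13.3 FPKM in deficient ones. Those most like Atp4b were Cenpm, a centromere protein gene (0.0441), Mslnl and Yif1b. Nearest to Pgc were Cryaa, a lens crystallin gene (0.0713), Sowaha and Glis3, and nearest to Gkn2 were Ifnl2 (0.192), Bpifb9a and Arhgap9. Nearest to Gkn1 were Ccl27a, Arl6ip4 and Hoxb9, and nearest to Gif were Spa17 and Ap1g2, and 1 gene known by a clone name.

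Genes beside the gastric genes were read next. Within 100 kb of the 7 genes the tables list 36 genes, members of the gastrokine cluster included, of which 31 were tested and 0 passed (limma, smallest adjusted p = 0.183), against 0.0763% of all tested genes. At an unadjusted p under 0.05 there was 1, Krtdap, against 14.6% of all tested genes. Krtdap, a keratinocyte gene 62.4 kb from Atp4a, was at 44.8 ± 6.02 FPKM in control and 70.6 ± 12.9 FPKM in deficient libraries. Groups did not overlap for Krtdap, Cox6b1 and Haus5 beside Atp4a and for Tmco3 beside Atp4b, against 21.5% of all tested genes. The 12 tested neighbours of Atp4a had differences from -0.48 to 0.63 with a median of 0.09, 7 of them positive. Positive were Cox6b1, Dmkn, Gapdhs, Krtdap, Rbm42, Tmem147 and Upk1a, and negative were 2200002J24Rik, Etv2, Ffar2, Haus5 and Sbsn. The nearest, Tmem147, lies 2.17 kb away and was at 127.1 ± 34.6 and 154.9 ± 22.8 FPKM, and Gapdhs, a sperm glycolytic gene 4.35 kb away, was at 2.67 ± 0.873 and 3.22 ± 0.533 FPKM, both with overlapping groups. Atp4b had 6 tested neighbours with a median of -0.16, of which Dcun1d2 was higher and Gas6, Grk1, Tfdp1, Tmco3 and Tmem255b were lower. Gif had 4 with a median of 0.0058, Mrpl16 and Stx3 higher and Oosp1 and Plac1l lower. Pgc had 5 with a median of 0.15, Frs3, Mdfi and Tomm6 higher and Usp49 and Tfeb lower. Of these Tfeb, a lysosomal regulator 2.56 kb from Pgc, was at 11.5 ± 1.99 and 7.45 ± 3.41 FPKM. Beside the gastrokines, Antxr1 had a difference of -0.38 and Arhgap25 of -0.51 (limma adjusted p = 0.353 and 0.444).

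The other genes of acid secretion, from a list of 16 channels, exchangers, receptors and partners of the parietal cell, were lower more often than higher. Of the 13 that were tested, 11 had lower and 2 higher values in the deficient libraries, against 54.7% lower among all tested genes. None of the 13 passed over all genes (limma, smallest adjusted p = 0.118). At an unadjusted p under 0.05, 8 were lower and 0 higher, against 7.82% lower and 6.81% higher of all tested genes, and these 8 were also the ones whose groups did not overlap (11.9% lower without overlap in all). The median difference was -0.57, against -0.04 for all tested genes. The count of 8 became 5 after quantile normalization and 5 without Con_261, and it was 8 without both Con_253 and cKO_265. Many of these genes serve other epithelia too, so the list is not particular to the stomach.

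Clic6, a chloride channel protein of parietal cells, averaged 10.8 ± 0.812 FPKM in control and 5.45 ± 1.04 FPKM in deficient libraries (difference -0.88, SE 0.18, limma adjusted p = 0.118). Sstr2, the somatostatin receptor that restrains acid secretion, averaged 8.38 ± 1.96 and 3.90 ± 1.24 FPKM (-0.94, SE 0.24). Kcnj15, a potassium channel gene and the highest of the list, had 79.4, 107.7 and 111.0 FPKM in control libraries and 68.9, 61.8 and 45.8 FPKM in deficient ones. The remaining 5 of the 8, named because they met that limit, were the potassium channel genes Kcnq1 (-0.62) and Kcnj16 (-0.57), the exchanger genes Slc9a4 (-0.64) and Slc26a9 (-0.44) and the gastrin receptor gene Cckbr (-0.63). Kcne2, the beta subunit that pairs with Kcnq1 at the parietal membrane, was chosen after its values were seen. It averaged 5.24 ± 1.18 FPKM in control and 7.06 ± 2.50 FPKM in deficient libraries (0.33, SE 0.27, limma adjusted p = 0.616). Its groups overlapped, as did those of Slc4a2, Car2, Esrrg and Ezr of the same list.

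**Figure D5:**
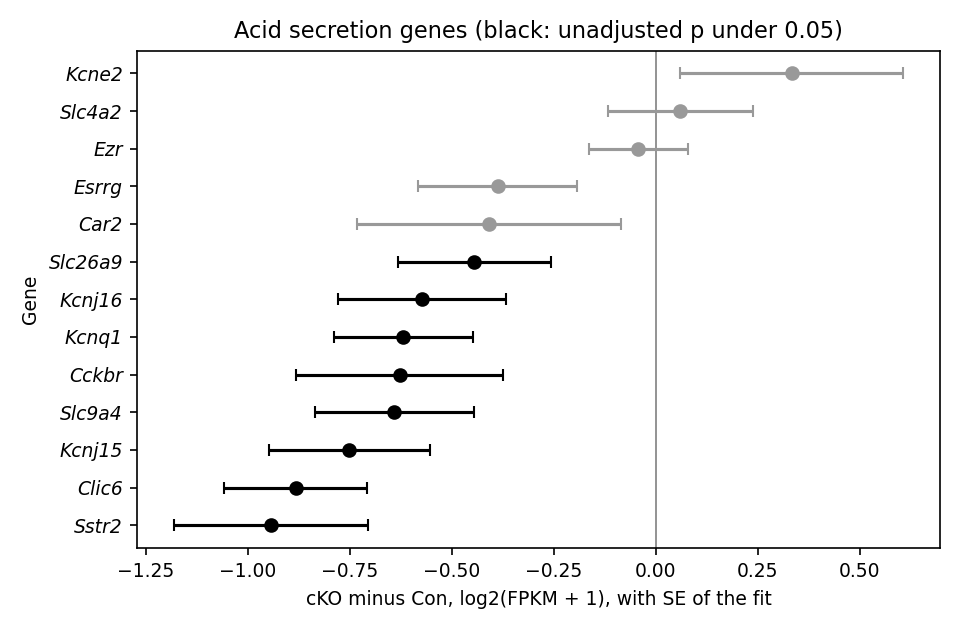
Difference between deficient and control libraries on the log2(FPKM + 1) scale, with the SE of the limma fit, for the 13 tested acid secretion genes (3 against 3 mice). The 8 genes in black had an unadjusted p under 0.05 and lie between -0.94 and -0.44, and Kcne2 and Slc4a2 are the 2 on the positive side.

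Markers of other cells were read beside these differences. Of 8 tested thymocyte markers 7 were lower in the deficient libraries, 5 at an unadjusted p under 0.05, against 54.7% and 7.82% of all tested genes. Cd3e (-1.06) and Cd3g (-0.80), of the T cell receptor complex, had the smallest p, and Lck, the highest, was at -0.20. Cd3e was low in both groups (2.22 ± 0.391 and 0.609 ± 0.631 FPKM). The 1 marker that was higher, Cd3d, belongs to the same complex. It was at 1.63 ± 0.482 and 2.02 ± 1.39 FPKM (0.098), with overlapping groups. The summed level of the 10 listed thymocyte genes was 41.5 to 67.6 FPKM in control and 29.7 to 36.9 FPKM in deficient libraries, with none listed at 0. The 4 endothelial markers were all lower, with sums of 6.59 to 7.09 and 4.24 to 5.04 FPKM. Among them Pecam1 was at -0.55, Tek at -0.33 and Cdh5 at -0.30. Sums of the 7 dendritic cell and macrophage markers were 338.2 to 377.6 and 265.9 to 297.5 FPKM, most of it from Lyz2, the lysozyme gene (344.6 ± 19.1 and 261.3 ± 17.5 FPKM). Aif1, a macrophage gene, stood the other way without overlap, at 4.29 ± 0.440 FPKM in control and 13.7 ± 3.16 FPKM in deficient libraries (1.46, SE 0.20, limma adjusted p = 0.0555). Flt3, of dendritic cells, averaged 2.71 ± 0.430 and 3.46 ± 1.53 FPKM with overlap, and of the 5 tested genes of this list 2 were higher and 3 lower. Those of B cells (38.3 to 50.7 and 40.03 to 55.9 FPKM), fibroblasts (27.97 to 35.5 and 24.5 to 30.4 FPKM) and cortical epithelium (314.3 to 401.6 and 312.5 to 366.5 FPKM) overlapped, and 1 erythroid marker with a row stayed under 0.284 FPKM. In these lists the named differences were 0.30 for Cd79b and -0.42 for Cd79a, and -0.55 for Col1a1 and -0.25 for Dcn. For cortical epithelium they were -0.38 for Cxcl12, -0.37 for Dll4 and -0.12 for Ctsl. None of the named genes was called (limma). The other 3 cortical markers were higher, Psmb11 (0.13), Prss16 (0.19) and Ly75 (0.23). Of the tested B cell markers 1 was higher and 3 lower, and of the fibroblast markers likewise 1 and 3. The 10 thymic epithelial markers had overlapping sums as well (7473 to 8512 and 7479 to 9030 FPKM). Of these markers 6 were higher and 4 lower, with Foxn1 at -0.24 and H2-Aa, the most abundant, at -0.043. The part of these other cells in the values of Atp4a and the acid secretion genes was not tested.

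Chief cell and mucous genes of the stomach gave no call either. Of the 6 listed chief cell and digestive genes 4 were tested, 2 higher and 2 lower, with 0 called (limma) and 0 at an unadjusted p under 0.05. Pga5, the other pepsinogen gene, averaged 5.50 ± 0.426 FPKM in control and 6.10 ± 1.32 FPKM in deficient libraries, and the gastric lipase gene Lipf was at 3.97 ± 1.52 and 3.76 ± 2.25 FPKM (both chosen after their values were seen). Xbp1, a regulator of secretory cells, was at 67.7 ± 5.64 and 58.0 ± 2.60 FPKM, and Rab3d, a granule protein gene, at 17.5 ± 0.978 and 25.1 ± 13.8 FPKM, high in cKO_262. Of the 12 surface and neck mucous genes 10 were tested, 8 lower and 2 higher, with 0 called and a median of -0.28. At an unadjusted p under 0.05, 2 were lower and 1 higher. Among all tested genes 54.7% were lower, and at that limit 7.82% were lower and 6.81% higher. Muc5ac, the surface mucin, had a difference of -1.05 (SE 0.21, limma adjusted p = 0.119), close to that of Atp4a on this scale. With a pseudocount of 0.1 Muc5ac was at -1.50 and Atp4a at -1.26. Tff1, a trefoil peptide secreted by the same surface cells, was at 25.1 ± 6.60 and 43.7 ± 10.3 FPKM (0.78, SE 0.24, adjusted p = 0.213), in the opposite direction. Of the genes of these lists named here, Tff1 was higher without overlap, and Muc5ac and Xbp1 were lower without overlap. Among all tested genes 9.59% were higher and 11.9% lower without overlap.

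Over all lists except those of cell markers, with each gene counted once, 83 genes were tested and 0 passed (limma, smallest adjusted p = 0.118). These lists also hold relatives of the gastric genes, regulators of mTEC states and a list whose genes are not reported here. The counts are therefore not particular to genes of the stomach. At an unadjusted p under 0.05 there were 20 lower and 2 higher genes, 26.5% in all against 14.6% of all tested genes. Lower values were found for 58 of the 83, against 54.7% of all tested genes. Aire and Fezf2, the regulators known to drive tissue antigens in mTECs, are given for reference. Aire averaged 325.7 ± 86.5 FPKM in control and 425.8 ± 97.0 FPKM in deficient libraries (limma adjusted p = 0.5004), with overlapping groups. Fezf2 averaged 219.7 ± 28.7 and 220.2 ± 24.0 FPKM (adjusted p = 0.990), and its difference was -0.27 after quantile normalization.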

How the data were processed

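Column-purified RNA of sorted mTECs was turned into cDNA with a single-cell whole-transcriptome kit, per the labels' protocols, and 1 library was sequenced for each of 6 mice. The authors deposited FPKM, 1 table per library. The submitters' processing notes name Bowtie2 2.2.5, Cufflinks and the build mm10; annotation, strand and scaling between libraries are not given in the sources used here.

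Rows of a symbol were summed, and 44 rows of 25 symbols turned into dates were left out. Starts were raised by 1 base (7844 of 16042 symbols began 1 base before the RefSeq start). Values were tested as log2(FPKM + 1) by limma 3.58.1 (R 4.3.3; lmFit, then eBayes with a trend; 2-sided; Benjamini-Hochberg over 15720 genes), which was checked on simulated data. Fold changes of low genes are understated on this scale. The simulated differences were larger than those of the gastric genes, so recovery of differences as small as theirs was not checked. Libraries come from separately numbered mice. The limma p-values set the group difference against the spread between mice, which limma moderates over all tested genes.

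The genes and lists were chosen with earlier results of these data known. By rule the text names the 7 genes, tested neighbours within 100 kb, the 3 genes most like each of the 7 that averages at least 1 FPKM and, per list, the 2 smallest p and the highest gene. The genes of 1 list are not reported here. Alternatives changed the pseudocount (0.1), the filter (none, or at least 5 FPKM), the scaling (quantiles, medians), library weights, the row of a symbol and the libraries. Shares of summed FPKM, pair ratios and acid secretion counts by setting were added after seeing the data.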

Additional observations from a re-analysis of the deposited data

How the results depend on the processing

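Atp4a kept its negative difference in all 14 alternatives (-1.26 to -0.80), Pgc in all 14 (-0.68 to -0.33) and Atp4b its positive one in all 13 in which it was fitted (0.17 to 0.78). Of the 6 tested gastric genes 0 were called (limma) in 13 of 14 alternatives. With library weights 2 were called, Atp4a at -1.14 and Atp4b at 0.56. In that setting 26 of the 83 tested genes of the lists counted together were called, and 3025 genes in all. The count of 12 called genes was 4 without a filter and ranged from 2 to 23 with 1 library left out: it was 2 without Con_253, Con_261 or Con_264, 23 without cKO_262 and 19 without cKO_265. Gif turned to 0.0099 under quantile normalization and ranged from -0.40 to 0.13 with 1 library left out. Gkn1 turned to 0.078 under quantile normalization and 0.042 under median centring, and ranged from -0.29 to 0.14 with 1 left out. Gkn2 turned to -0.13 with library weights and -0.15 without both Con_253 and cKO_265, and ranged from -0.095 to 0.50 with 1 left out. Among genes of at least 5 FPKM, where 9 acid secretion genes were left, 7 were lower and 4 of them had an unadjusted p under 0.05. The latter count was 5 under quantile normalization and ranged from 5 to 7 with 1 library left out. Among 27 named list genes, 11 of 373 refits turned direction: Fezf2 under quantile normalization (-0.27), with library weights (-0.045) and with 1 library left out (-0.11 to 0.10). Amn turned with library weights (-0.00094), without both libraries (-0.15) and with 1 left out (-0.091 to 1.08), Itm2c under quantile normalization (-0.075), Xbp1 with its largest row (0.31) and Rab3d with 1 left out (-0.029 to 0.64). Apart from fewer genes or libraries in a fit, the cause was not tested. No paired analysis was made because the labels give no pairing of mice and no batch. Depth is unknown, and 3 mice per group limit the precision.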

Other observations

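Relatives of pepsinogen gave no call. All 7 aspartic protease genes were tested, 6 lower and 1 higher, with 0 called (limma) and 3 lower at an unadjusted p under 0.05, against 54.7% lower and 7.82% lower at that limit among all tested genes. Differences were -0.59 for Napsa, -0.52 for Ren1 and -0.29 for the highest, Ctsd.

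The 7 BRICHOS relatives of the gastrokines were tested, 6 higher and 1 lower, with 0 called, and 0 at an unadjusted p under 0.05. For this and the next 2 lists, 54.7% of all tested genes were lower. At an unadjusted p under 0.05, 7.82% of all tested genes were lower and 6.81% higher. Tnmd, the tendon gene tenomodulin, was at 24.1 ± 7.40 and 43.7 ± 21.2 FPKM, highest in cKO_265, and Itm2c was at 1056 ± 225.7 and 1349 ± 149.6 FPKM. Of the 7 genes of vitamin B12 transport 5 were tested, 3 higher and 2 lower, with 0 called and 0 at an unadjusted p under 0.05 (limma). Their largest difference was that of Amn, the amnionless partner of the intrinsic factor receptor, which was at 7.87 FPKM in cKO_265 and at 0.759 to 1.44 FPKM in the other 5 libraries. Cd320 was at 6.93 ± 0.503 and 8.16 ± 1.05 FPKM, and Tcn2, the blood carrier of the vitamin, at 21.6 ± 1.39 and 19.7 ± 2.38 FPKM. The 5 gastric endocrine genes were tested, 3 higher and 2 lower, with 0 called and 1 lower at an unadjusted p under 0.05. This was Hdc, the histamine enzyme gene, at 247.5 ± 17.8 and 182.0 ± 26.8 FPKM, followed by the granule gene Chga at 54.1 ± 1.84 and 41.2 ± 11.2 FPKM. The gastrin gene Gast was at 4.06 to 23.8 FPKM in the controls and at 75.0 FPKM in cKO_265, against 4.74 and 4.86 FPKM in the other 2 deficient libraries (chosen after its values were seen).

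Of 11 stomach transcription factor genes 10 were tested, 8 lower and 2 higher, with 0 called and 1 lower at an unadjusted p under 0.05. Among all tested genes 54.7% were lower, and 7.82% were lower at that limit. Foxa3 was at 2.75 ± 0.270 and 1.37 ± 0.865 FPKM, Foxa2 at 2.32 ± 0.971 and 1.27 ± 0.422 FPKM and Klf4, the highest, at 65.9 ± 10.7 and 55.5 ± 2.26 FPKM. Of 14 regulators of tissue-like mTEC states 13 were tested, 9 lower and 4 higher, with 0 called (limma) and 2 lower at an unadjusted p under 0.05. These were Myog, the muscle factor, at -1.40 and Pou2f3, the tuft cell factor, at -0.78 (adjusted p = 0.149 and 0.140).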
